A study of Mus musculus with 12 samples.

Results

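The neuronal intermediate filament genes are the 3 neurofilament genes Nefl, Nefm and Nefh, the α-internexin gene Ina and the peripherin gene Prph. They were followed on 12 Affymetrix mouse arrays through every probe set that the platform annotation assigns to exactly 1 of these 5 symbols. This gave 11 probe sets of 45037 that are no controls, for 5 genes of 18193 that have a probe set with a single symbol. The RNA came from CAG150 and HM1 cells taken on day 6 or day 4 of differentiation into neurons, which makes 4 groups of 3 arrays. HM1 is a mouse embryonic stem cell line without a working Hprt gene. CAG150 cells are embryonic stem cells with an expanded CAG repeat, which lies in the Huntington's disease gene Htt as far as the study is known. The sample titles set the groups, although the descriptions of the HM1 day 6 samples name the earlier day and those of all day 6 samples, in both lines, give the number of the first replicate. Each genotype is represented by 1 line, and the labels give no culture, passage or clone, so the tests see no more than the variation among the deposited samples, which may be technical.

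Neurofilaments are the stretch-resistant cables of the axon and set its calibre. The light subunit NF-L, encoded by Nefl, builds the core, and the medium and heavy subunits NF-M and NF-H co-assemble with it and project long, heavily phosphorylated tails. α-Internexin joins the same polymer in central neurons and is known to appear early in neuronal development, whereas NF-H is known as a late subunit of maturing axons. Peripherin is found mainly in peripheral, sensory and motor neurons.

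Values below are deposited intensities on a linear scale. Differences are of log2(intensity + 16) ± SE from a limma fit of 12280 genes on all arrays, with 1 probe set per gene, the brightest. P-values are limma's, adjusted over these genes by the Benjamini-Hochberg method, and 0.05 was the threshold for passing. The 5 genes all lay above the filter on low signal, which sits at a mean intensity of about 11.9. Levels of different genes cannot be compared, since each probe set has its own brightness.

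Median array intensities ranged from 19.2 to 25.9. The 6 neuron markers checked, among them Tubb3 and Map2, lay above the filter in every group, and their summed intensity was 8598 to 9500 in CAG150 cells at day 6, 1508 to 1769 in CAG150 cells at day 4, 5784 to 6819 in HM1 cells at day 6 and 2839 to 3114 in HM1 cells at day 4. At day 4, 2 of these 6 markers were higher and 1 lower in CAG150 than in HM1 cells (median difference 0.23). Of all genes tested, 7.87% were higher and 7.92% lower. The 1 lower marker was Stmn2 (-1.77), and the sums weigh bright markers most, so they do not stand for all 6. The cultures also held other signals. The sum of 6 stem cell markers was 879 to 943 in CAG150 cells and 2086 to 2399 in HM1 cells at day 6, and 479 to 526 against 1444 to 1631 at day 4. The sum of 6 smooth muscle and fibroblast markers was 258 to 289 in CAG150 cells and 4755 to 5701 in HM1 cells at day 6, and 405 to 456 against 3181 to 3662 at day 4. Cnn1 and Col1a1 (CAG150 day 6), Cnn1 and Col3a1 (CAG150 day 4) and Col1a1 (HM1 day 4) lay below the filter intensity. Of the glial markers, Gfap, the intermediate filament of astrocytes, lay below the filter in 3 of the 4 groups. In bulk RNA, fewer cells of a type and less RNA per cell cannot be told apart. The sum of 6 neural crest markers was 790 to 956 in CAG150 cells and 272 to 345 in HM1 cells at day 6, and 78.3 to 108 against 99 to 133 at day 4. At day 6, 2 of the 5 crest markers tested were higher and 0 lower in CAG150 (median difference 0.17), where 10.1% of all genes were higher and 11.2% lower. Foxd3 lay below the filter in CAG150 cells at day 6. The part of the differing marker signals in the differences between lines described below was not tested.

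The first question was how the filament genes changed during differentiation, between day 4 and day 6. Nefl, Nefm and Ina rose several-fold in both lines, while Nefh fell in both. Prph, dim throughout, passed as lower at day 6 in HM1 only, a difference between the lines that did not itself pass. In CAG150 cells 3 of the 5 genes were higher at day 6 and 1 was lower, where 44.4% of all genes tested passed, 22.5% as higher and 21.9% as lower. In HM1 cells 3 were higher and 2 lower, where 38.9% of all genes passed, 20.4% as higher and 18.5% as lower. The arrays of the days did not overlap for 4 of the 5 genes in CAG150 and for 5 of 5 in HM1, beside 55.0% and 49.1% of all genes. The median difference of the 5 genes was 2.15 in CAG150 and 1.84 in HM1, beside 0 and 0.00 over all genes tested.

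**Figure D1:**
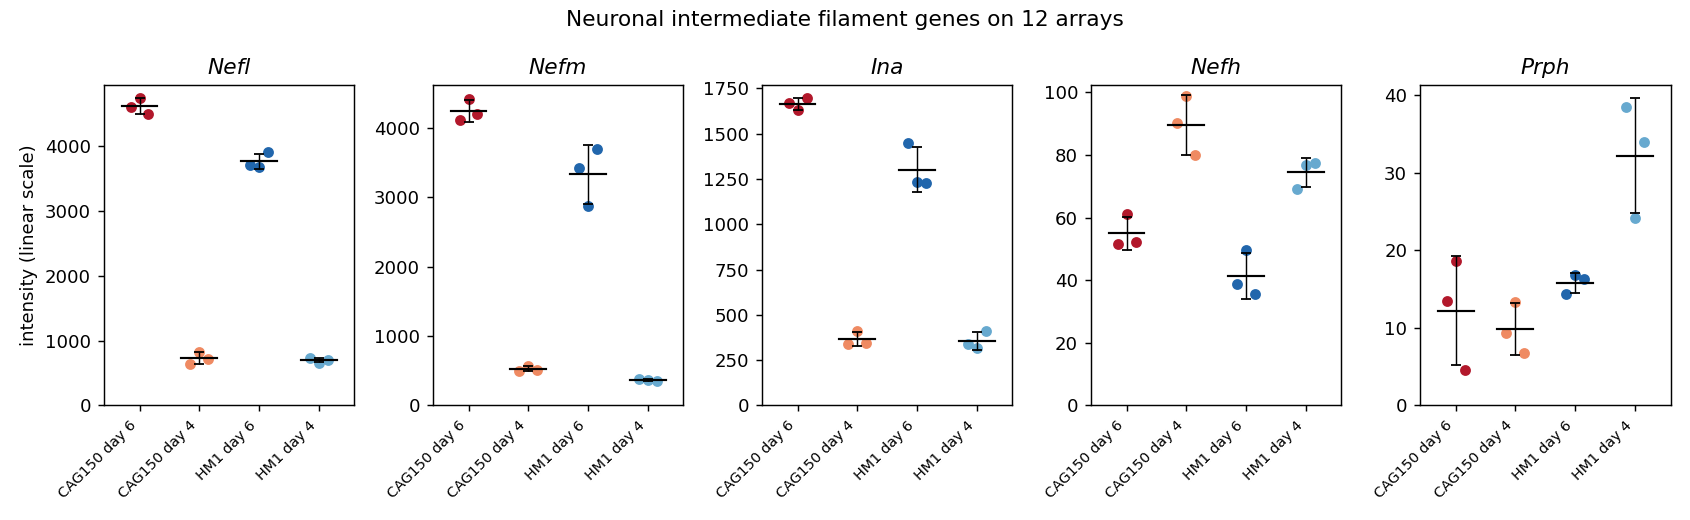
Intensity (linear scale, each panel with its own axis from 0) of the probe set used for each gene on the 12 arrays, by group. Points are arrays, the horizontal line is the mean of 3 arrays and the bar is ± 1 SD. Nefl, Nefm and Ina stood far higher at day 6 than at day 4 in both lines, Nefh stood lower at day 6, and Prph was highest in HM1 cells at day 4.

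Nefl encodes the subunit on which the polymer is built. Its intensity was 4604, 4736 and 4496 in CAG150 cells at day 6, against 636, 829 and 723 in CAG150 cells at day 4. In HM1 cells it was 3709, 3674 and 3901 at day 6, against 733, 662 and 707 at day 4. No day 6 array came near any day 4 array in either line. The rise was 6.24-fold in CAG150 cells (log2 difference 2.64 ± 0.10, adjusted p = 1.7e-09) and 5.27-fold in HM1 cells (2.40 ± 0.10, adjusted p = 2.8e-09), n = 3 per group. Ordered by size, these were difference 21 of 12280 in CAG150 and 40 of 12280 in HM1, counted from the largest rise. The second Nefl probe set, 1454672_at, gave 2.96 ± 0.08 in CAG150 and 2.54 ± 0.08 in HM1 in a fit of the 27022 probe sets above the filter, where 33.5% passed in CAG150 and 27.8% in HM1.

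Nefm encodes the medium subunit, whose tail carries many phosphorylation sites. It had intensities of 4123, 4418 and 4200 in CAG150 cells at day 6, against 499, 570 and 514 in CAG150 cells at day 4. In HM1 cells it had 3430, 2871 and 3691 at day 6, against 381, 361 and 347 at day 4. The day 6 and day 4 arrays were widely separated in both lines. Among the 5 genes Nefm had the largest rise, 7.85-fold in CAG150 (2.97 ± 0.10, adjusted p = 9.2e-10) and 8.78-fold in HM1 (3.13 ± 0.10, adjusted p = 9e-10). It held places 11 and 9 of 12280 from the largest rise. Nefm and Nefl are neighbours on chromosome 14 (GRCm38.p6, 68119545 to 68125004 and 68083863 to 68089095), with 0 protein-coding genes annotated in the 30449 bases between them.

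Ina encodes α-internexin. It had intensities of 1671, 1629 and 1696 in CAG150 cells at day 6, against 338, 410 and 347 in CAG150 cells at day 4. In HM1 cells it had 1446, 1235 and 1225 at day 6, against 338, 317 and 409 at day 4. The day 6 arrays lay above every day 4 array. Ina rose 4.43-fold in CAG150 cells (2.15 ± 0.11, adjusted p = 2e-08) and 3.57-fold in HM1 cells (1.83 ± 0.11, adjusted p = 9.2e-08). Its other probe sets rose too in the fit of all probe sets, 1448992_at by 2.17 ± 0.13 and 1.75 ± 0.13 and 1418178_at by 1.66 ± 0.12 and 1.15 ± 0.12, CAG150 first and HM1 second.

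The RefSeq promoter table (GRCm38.p6) held entries for Ina and Prph. The 250 bases before the annotated start of each gene are shown here because Ina rose with differentiation and Prph did not. Capitals mark every match on either strand to 3 motifs. The first is the TATA box, spelled TATAAA. The second is the GC box known to bind Sp1, spelled GGGCGG and seen here as its reverse complement. The third is the E-box CAGCTG, a palindrome of the kind that proneural factors bind. Both genes lie on the plus strand, Ina at chr19:47014431-47014680 and Prph at chr15:99054924-99055173.
Ina: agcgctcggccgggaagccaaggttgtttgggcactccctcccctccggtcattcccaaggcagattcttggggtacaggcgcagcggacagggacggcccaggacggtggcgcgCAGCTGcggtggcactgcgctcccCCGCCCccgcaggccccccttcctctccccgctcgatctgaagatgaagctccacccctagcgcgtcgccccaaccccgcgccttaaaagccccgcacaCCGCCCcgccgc
Prph: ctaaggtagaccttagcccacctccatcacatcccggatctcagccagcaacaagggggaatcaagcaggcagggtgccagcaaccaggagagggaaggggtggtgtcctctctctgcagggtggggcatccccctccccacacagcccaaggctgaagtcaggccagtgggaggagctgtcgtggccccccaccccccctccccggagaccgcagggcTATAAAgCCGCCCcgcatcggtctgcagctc
The Ina window held 1 E-box, which begins at -135 from the start, and 2 GC boxes at -111 and -12. The Prph window held 1 TATA box at -31 and 1 GC box at -24, and it lies inside the span annotated for Prph, which begins further upstream. No 2 matches overlap. Of 32851 RefSeq mouse promoter windows of the same length, 12.4% held TATAAA, 32.7% GGGCGG and 13% CAGCTG, so matches of these kinds are common.

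Nefh encodes the heavy subunit, the one with the longest tail. It had intensities of 51.5, 61.0 and 52.2 in CAG150 cells at day 6, against 90.1, 98.8 and 79.8 in CAG150 cells at day 4. In HM1 cells it had 38.9, 49.6 and 35.5 at day 6, against 69.1, 76.7 and 77.5 at day 4. Every day 6 array lay below every day 4 array of its line, opposite to Nefl, Nefm and Ina. The log2 difference was -0.57 ± 0.11 in CAG150 (adjusted p = 0.00086) and -0.67 ± 0.11 in HM1 (adjusted p = 0.00038). Both differences kept their sign and passed without any 1 of the 12 arrays. Only 1 probe set, 1424847_at, measures Nefh here.

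Prph encodes peripherin. Its intensity was 13.5, 18.6 and 4.62 in CAG150 cells at day 6, against 9.40, 13.4 and 6.79 in CAG150 cells at day 4. In HM1 cells it was 14.3, 16.8 and 16.3 at day 6, against 38.6, 24.1 and 34.0 at day 4. The HM1 day 4 arrays stood above all others, and Prph lay close to the filter elsewhere. The log2 difference between the days was 0.10 ± 0.17 in CAG150 (adjusted p = 0.66), with an interval from -0.27 to 0.48. In HM1 Prph fell by 0.59 ± 0.17 on the log2 scale (adjusted p = 0.017). This call was lost with a pseudocount of 1 (-0.96, adjusted p = 0.085) and without HM1 day 4 replicate 1 (-0.50, adjusted p = 0.065), HM1 day 4 replicate 3 (-0.56, adjusted p = 0.05) or HM1 day 6 replicate 1 (-0.56, adjusted p = 0.053). The other 3 Prph probe sets had mean intensities of 5.48 to 10.3 and were below the filter, and the mean of all 4 gave a day difference of 0.08 in HM1 (adjusted p = 0.72).

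**Figure D2:**
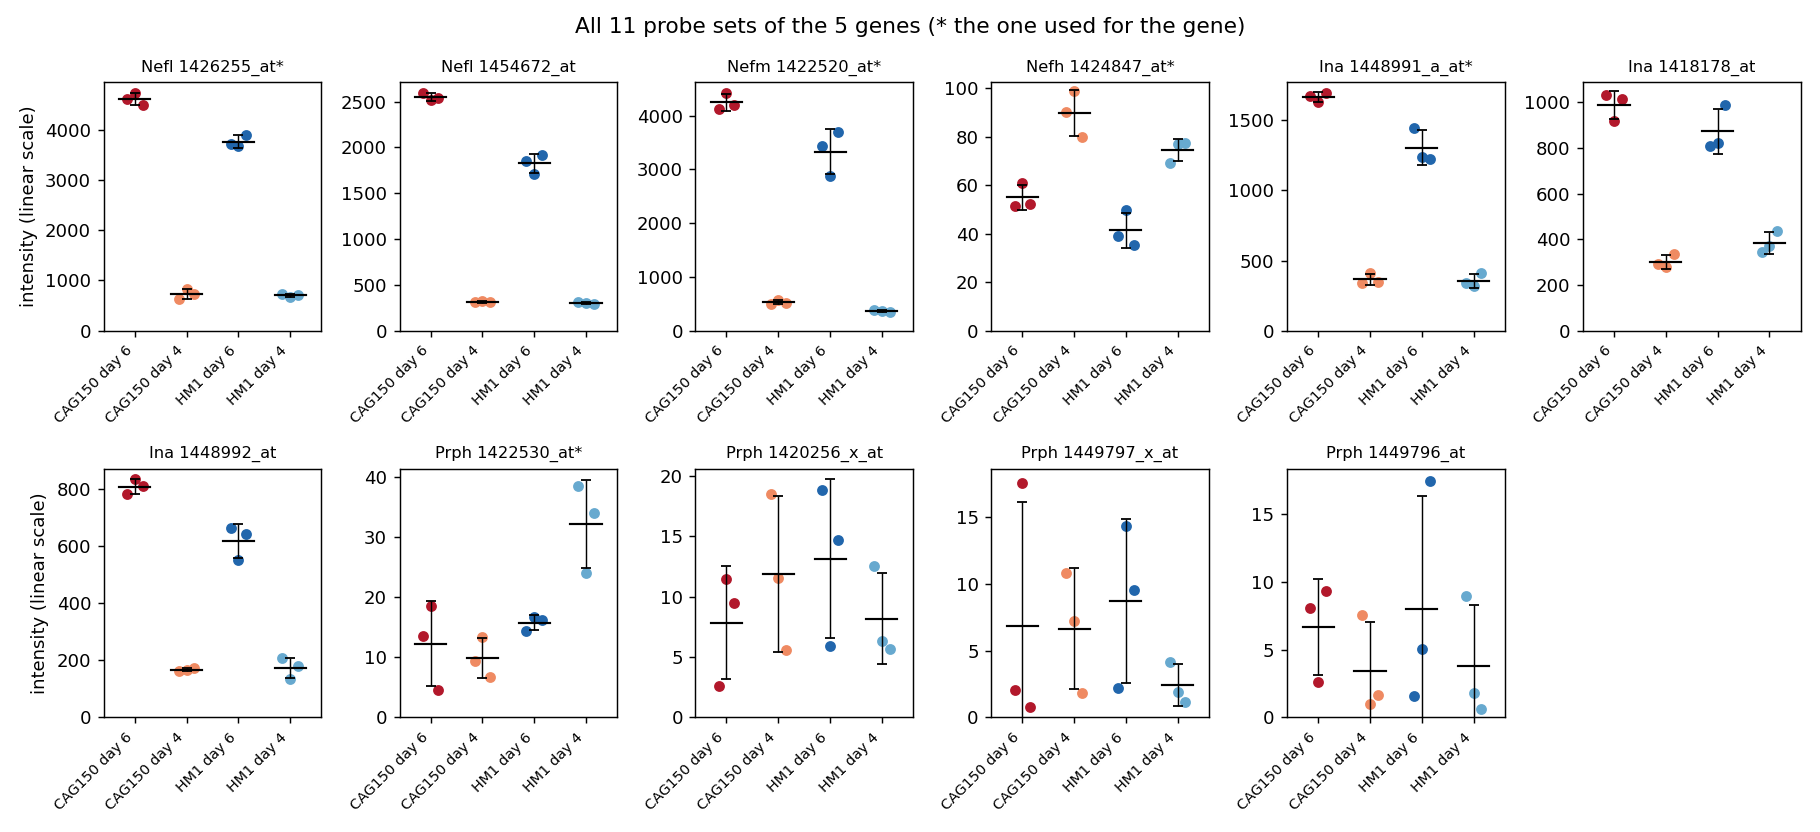
Intensity (linear scale, each panel with its own axis from 0) of all 11 probe sets of the 5 genes on the 12 arrays, by group, with the mean and ± 1 SD of 3 arrays. An asterisk marks the probe set used for the gene. The 2 Nefl and 3 Ina probe sets are all higher at day 6 than at day 4, by different amounts, and the 3 Prph probe sets without an asterisk are dim in all groups.

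The day difference was set between the lines by testing the difference of the day differences. On the probe set used for each gene, 0 of the 5 genes passed with limma, and 1, Prph, had an unadjusted p under 0.05. Of all genes, 3.61% passed, 1.58% as higher and 2.03% as lower, and 16.5% had an unadjusted p under 0.05. With a trend in the variance the count was also 0. The differences were 0.24 ± 0.13 for Nefl (95% interval -0.05 to 0.54), -0.16 ± 0.14 for Nefm (-0.47 to 0.14), 0.31 ± 0.16 for Ina (-0.03 to 0.65), 0.09 ± 0.15 for Nefh (-0.24 to 0.42) and 0.69 ± 0.24 for Prph (0.16 to 1.22). A positive value means that day 6 minus day 4 was the higher number in CAG150, so for Nefh it stands for a smaller fall there. The adjusted p was 0.41 for Nefl, 0.64 for Nefm, 0.36 for Ina, 0.84 for Nefh and 0.17 for Prph. The other Nefl and Ina probe sets gave larger values with intervals above 0 in the fit of all probe sets, where 1.54% passed. They were 0.42 (0.17 to 0.67) for Nefl 1454672_at, 0.51 (0.14 to 0.88) for Ina 1418178_at and 0.42 (0.03 to 0.82) for Ina 1448992_at. None of them passed (limma adjusted p = 0.11, 0.2 and 0.35). Without CAG150 day 6 replicate 3, the lowest Prph array, Prph passed at 0.90 (adjusted p = 0.036).

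The second question was how the lines differed late in differentiation. At day 6 Nefl, Nefm and Ina were 1.22 to 1.28 times as high in CAG150 cells as in HM1 cells and passed, which is 3 of 5 genes higher, where 10.1% of all genes tested were higher. Nefh was higher by a like amount and did not pass, and Prph did not differ beyond its spread. The CAG150 and HM1 arrays did not overlap for 4 of the 5 genes, where this was so for 38.6% of all genes. The median difference of the 5 genes was 0.31, beside -0.00 over all genes.

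**Figure D3:**
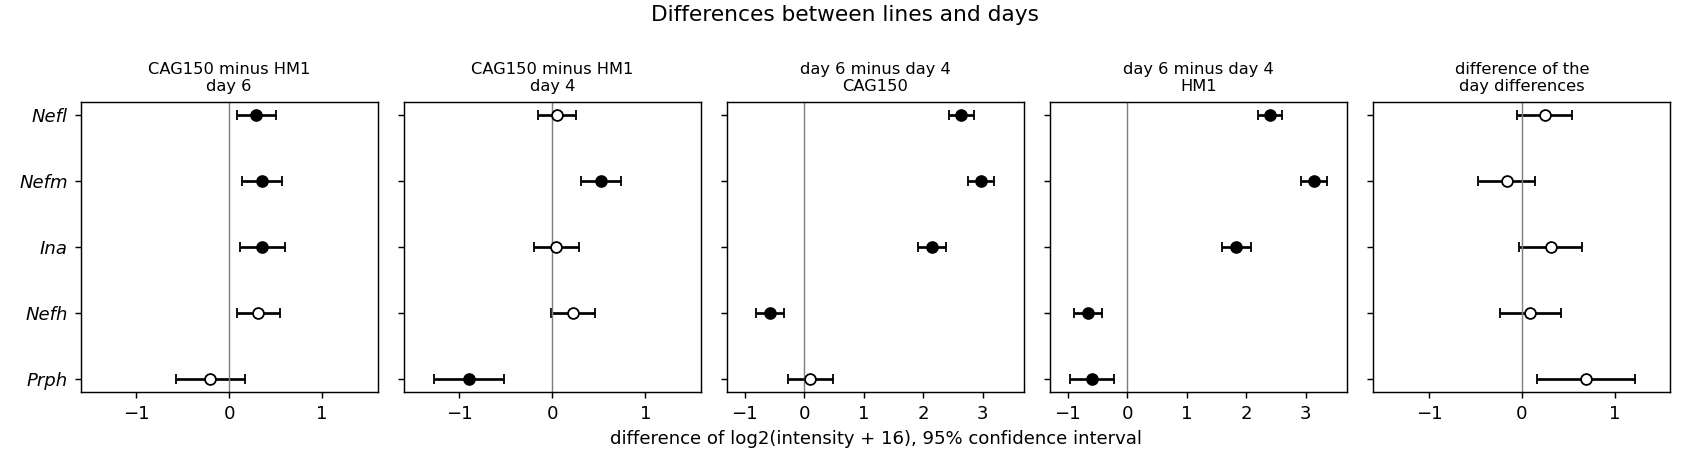
Differences of log2(intensity + 16) of the 5 genes in 5 comparisons, with 95% confidence intervals from limma. Filled points passed at an adjusted p under 0.05 and open points did not. The line differences are within about 1 log2 unit of 0, and the day differences of Nefl, Nefm and Ina lie between 1.83 and 3.13.

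Nefl averaged 4612 ± 120 in CAG150 cells and 3761 ± 122 in HM1 cells at day 6 (SD, n = 3 each; log2 difference 0.29 ± 0.10, adjusted p = 0.046). The second Nefl probe set averaged 2550 ± 39.3 in CAG150 and 1826 ± 103 in HM1 (0.48 ± 0.08, adjusted p = 0.0023 over all probe sets, of which 14.5% passed). In that fit the brighter Nefl probe set, 1426255_at, did not pass (adjusted p = 0.076). Nefm averaged 4247 ± 153 in CAG150 and 3331 ± 419 in HM1 (0.36 ± 0.10, adjusted p = 0.023). The lowest CAG150 array of each of these 2 genes was above the highest HM1 array. Ina averaged 1666 ± 33.8 in CAG150 and 1302 ± 125 in HM1 (0.36 ± 0.11, adjusted p = 0.038). Its other probe sets gave 0.38 ± 0.13 (1448992_at, adjusted p = 0.07) and 0.18 ± 0.12 (1418178_at, adjusted p = 0.36) in the fit of all probe sets, where 1448991_a_at, the brightest, had adjusted p = 0.062.

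These 3 calls are close to the threshold. Nefl lost its call without any of 9 arrays, namely those of HM1 day 4 replicates 1 and 3, CAG150 day 4 replicate 3 and all 6 of day 6, with differences of 0.27 to 0.32 over the 12 omissions. Ina lost it without any CAG150 day 6 array or HM1 day 6 replicates 2 or 3 (0.31 to 0.43), and Nefm without CAG150 day 6 replicates 2 or 3 or HM1 day 6 replicate 2 (0.25 to 0.43). With the arrays centred on their medians the differences were 0.23 for Nefl, 0.30 for Nefm and 0.30 for Ina and none of the 3 passed (adjusted p = 0.15, 0.076 and 0.095).

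Nefh averaged 54.9 ± 5.32 in CAG150 cells and 41.3 ± 7.34 in HM1 cells at day 6 (0.31 ± 0.11, adjusted p = 0.057), and passed without HM1 day 6 replicate 2 (0.41, adjusted p = 0.021). It is the 1 gene of the 5 on chromosome 11 (4938754 to 4948064). The 1007 genes tested on that chromosome had a median difference of 0.23 at day 6 and 31.8% of them were higher in CAG150, while the medians of the 17 autosomes other than 8 and 11 lay between -0.06 and -0.01. Chromosome 14, with Nefl and Nefm, had -0.03 and chromosome 19, with Ina, had -0.04. The part of the chromosome 11 shift in the Nefh difference was not tested. Prph averaged 12.2 ± 7.09 in CAG150 and 15.8 ± 1.30 in HM1 (-0.20 ± 0.17, adjusted p = 0.45, interval -0.58 to 0.17).

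The third question was how the lines differed early. At day 4 Nefm was higher and Prph lower in CAG150 cells than in HM1 cells, and Nefl, Ina and Nefh did not pass. That is 1 of 5 genes higher and 1 lower, where 7.87% of all genes tested were higher and 7.92% lower. For 3 of the 5 genes the CAG150 arrays lay wholly to one side of the HM1 arrays, beside 34.4% of all genes. The median difference of the 5 genes was 0.05, beside 0.01 over all genes.

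Nefm averaged 528 ± 37.7 in CAG150 cells and 363 ± 16.9 in HM1 cells at day 4, 1.43 times as high in CAG150 (0.52 ± 0.10, adjusted p = 0.0039). The lowest CAG150 array, at 499, was above the highest HM1 array, at 381. The call held without any 1 of the 12 arrays, with adjusted p up to 0.021. Nefl averaged 729 ± 96.3 in CAG150 and 701 ± 35.8 in HM1 (0.05 ± 0.10, adjusted p = 0.78, interval -0.16 to 0.26). Ina averaged 365 ± 39 in CAG150 and 354 ± 48.2 in HM1 (0.04 ± 0.11, adjusted p = 0.84), and its other probe sets gave -0.33 ± 0.12 (1418178_at, adjusted p = 0.11) and -0.04 ± 0.13 (1448992_at, adjusted p = 0.88), in the fit of all probe sets, where 10.2% passed. The arrays of the lines overlapped for Nefl and for Ina's brightest probe set. Nefh averaged 89.6 ± 9.49 in CAG150 and 74.5 ± 4.61 in HM1 (0.22 ± 0.11, adjusted p = 0.19). The chromosome 11 median at day 4 was 0.17.

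Prph averaged 9.87 ± 3.34 in CAG150 cells and 32.2 ± 7.38 in HM1 cells at day 4 (-0.90 ± 0.17, adjusted p = 0.004). The highest CAG150 array, at 13.4, was below the lowest HM1 array, at 24.1. The CAG150 mean lay below the filter intensity, so the size depends on the pseudocount, with -1.63 (adjusted p = 0.022) for a pseudocount of 1 and -0.38 (adjusted p = 0.0031) for 64. The difference rests on 1 of 4 probe sets, since the mean of all 4 gave -0.11 (adjusted p = 0.66).

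Put in order on the probe sets used, Nefl and Ina were highest in CAG150 cells at day 6, then in HM1 cells at day 6, with the lines at day 4 lowest and not differing beyond their spread. For Ina this order did not hold on 1418178_at. There the lines overlapped at day 6, and at day 4 every CAG150 array lay below every HM1 array (-0.33 ± 0.12, limma adjusted p = 0.11). Nefm had the order CAG150 day 6, HM1 day 6, CAG150 day 4 and HM1 day 4. Its steps between the lines passed on both days, and the step between HM1 day 6 and CAG150 day 4 was not tested, although their arrays lie far apart. With median centring the day 6 steps between the lines did not pass for Nefl, Nefm or Ina. Nefh had the order CAG150 day 4, HM1 day 4, CAG150 day 6 and HM1 day 6, where neither step between the lines passed.

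Other intermediate filament genes were read from a list of 14, of which 10 were tested. Nes, the progenitor filament nestin, and Vim, vimentin, rose at day 6 in both lines, so 2 of 10 were higher in each line, with 2 lower in CAG150 and 1 in HM1. Of all genes tested, 22.5% were higher and 21.9% lower in CAG150, and 20.4% higher and 18.5% lower in HM1. The counts of this list therefore do not stand out from all genes. Nes averaged 332 ± 19.4 at day 6 and 124 ± 12.7 at day 4 in CAG150 (1.32 ± 0.14, adjusted p = 7.7e-06), and 421 ± 54.2 and 168 ± 35.6 in HM1 (1.26 ± 0.14, adjusted p = 1.5e-05). Vim differed by 1.27 ± 0.10 in CAG150 and 1.43 ± 0.10 in HM1 (adjusted p = 9.3e-07 and 4.6e-07). The 2 that fell in CAG150 were the simple epithelial keratins Krt18 (-0.92 ± 0.12, adjusted p = 4.4e-05) and Krt8 (-0.47 ± 0.17, adjusted p = 0.042). The Krt8 call was lost in 8 of the 12 omissions of 1 array, and without CAG150 day 6 replicate 3 the difference was -0.24 (adjusted p = 0.18). In HM1 it was Synm, synemin (-0.64 ± 0.14, adjusted p = 0.0036).

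Between the lines, 4 of the 10 were lower in CAG150 cells and 0 higher at each day, where 11.2% of all genes were lower at day 6 and 7.92% at day 4. At day 6 the 4 were Krt18 (67.5 ± 6.48 in CAG150 and 546 ± 61.1 in HM1), Krt8 (64.7 ± 21.8 and 497 ± 23.1), Krt19 (2.29 ± 2.37 and 50.6 ± 12) and the nuclear lamin gene Lmna (27.7 ± 15.6 and 49.0 ± 3.48), CAG150 first in each. The CAG150 mean of Krt19 lay below the filter intensity of about 11.9, so the size of its difference depends on the pseudocount. The Lmna arrays of the lines overlapped, and its call was lost in 5 of the 12 omissions of 1 array. At day 4 they were the same 3 keratins and Synm. The median of the 10 was -0.32 at day 6 and -0.28 at day 4.

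Partners of neurofilaments, a list of 30 kinases, motors, linkers and turnover factors of which 25 were tested, moved mostly upward between the days. In CAG150 cells 17 of 25 rose and 0 fell (median difference 0.57, all genes 0), where 22.5% of all genes rose and 21.9% fell. In HM1 cells 15 rose and 1 fell (median 0.40, all genes 0.00), where 20.4% of all genes rose and 18.5% fell. Those with the largest differences were mostly kinesin-1 genes, the motor known to carry neurofilaments along the axon. Klc1, a kinesin light chain, averaged 1450 ± 122 at day 6 and 328 ± 29.3 at day 4 in CAG150 (2.09 ± 0.09, adjusted p = 5.4e-09), and 1067 ± 49.5 and 320 ± 15.7 in HM1 (1.69 ± 0.09, adjusted p = 4.5e-08). The heavy chain Kif5a differed by 1.88 ± 0.17 in CAG150 and 1.79 ± 0.17 in HM1, and Kif5c by 1.72 ± 0.08 and 1.51 ± 0.08. Trim2, a ubiquitin ligase that binds NF-L, differed by 1.57 ± 0.09 in CAG150. Cdk5r2, an activator of the tail kinase Cdk5, differed by 1.54 ± 0.28 in HM1, where its day 4 mean was 5.68.

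Between the lines fewer partners passed, with shares near those of all genes, of which 21.4% passed at day 6 and 15.8% at day 4. At day 6 4 of 25 were higher in CAG150 cells and 1 lower, among them Trim2 (824 ± 21.7 in CAG150 and 528 ± 33.8 in HM1, 0.63 ± 0.09, adjusted p = 0.00043), Cdk5r1, the p35 activator of Cdk5 (0.57 ± 0.17, adjusted p = 0.033), and Klc1 (0.43 ± 0.09, adjusted p = 0.0056). The 1 lower in CAG150 was Plec, plectin, a linker of intermediate filaments (-0.45 ± 0.12, adjusted p = 0.02). The call was lost in 4 of the 12 omissions of 1 array for Cdk5r1 and in 3 for Plec. Cdk5r1 lies on chromosome 11, where the median difference at day 6 was 0.23 and 31.8% of genes were higher in CAG150. The part of that shift in the Cdk5r1 difference was not tested. At day 4 0 were higher and 3 lower, Mapk10 (-1.27 ± 0.24), Plec (-0.63 ± 0.12) and the linker Dst (-0.58 ± 0.13). In the difference of the day differences Mapk10 (1.43 ± 0.34, adjusted p = 0.035) and Trim2 (0.55 ± 0.13, adjusted p = 0.038) passed. Neither passed with a pseudocount of 1 or without the filter, and at most 1 partner passed when any 1 of the 12 arrays was left out.

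**Figure D4:**
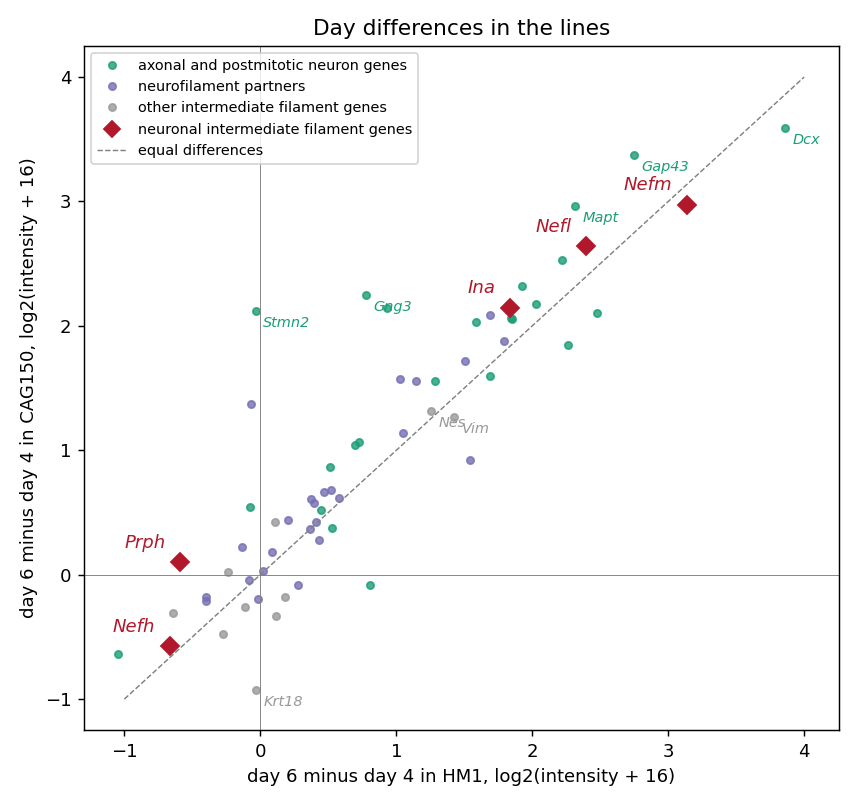
Day 6 minus day 4 difference of log2(intensity + 16) in CAG150 (vertical axis) and HM1 (horizontal axis) for the 5 neuronal intermediate filament genes (diamonds) and the tested genes of 3 lists (circles). The dashed line marks equal differences. Nefl, Nefm and Ina lie near the line among the axonal genes, Nefh lies near it below 0, and Stmn2 and Gng3 lie well above it.

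Axonal and postmitotic neuron genes, a list of 24 that were all tested, gave the setting for these changes. Between the days 22 rose and 1 fell in CAG150 (median 2.04) and 21 rose and 1 fell in HM1 (median 1.44). Of all genes tested, 22.5% rose and 21.9% fell in CAG150, and 20.4% rose and 18.5% fell in HM1. Dcx, doublecortin of migrating neurons, differed by 3.59 ± 0.09 in CAG150 and 3.86 ± 0.09 in HM1. Gap43, a growth cone protein, differed by 3.37 ± 0.09 and 2.75 ± 0.09, and Mapt, the axonal tau, by 2.96 ± 0.12 and 2.31 ± 0.12. In the difference of the day differences 5 of the 24 were higher in CAG150 and 0 lower, where 1.58% of all genes were higher, and Stmn2 (2.15 ± 0.13, adjusted p = 3.6e-06), Gng3 (1.47 ± 0.12, adjusted p = 3.6e-05), Syt1 (1.21 ± 0.16, adjusted p = 0.0012) and Gap43 (0.63 ± 0.13, adjusted p = 0.019) led them. Between the lines 11 of 24 were higher in CAG150 and 0 lower at day 6, where 10.1% of all genes were higher and 11.2% lower. At day 4, 6 were higher and 5 lower, where 7.87% of all genes were higher and 7.92% lower.

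Regulators and transmitter genes of the peripheral, sensory and motor neurons in which peripherin is known to be found made a list of 22, with 13 tested. In CAG150 cells 9 rose and 1 fell at day 6 (median 0.78), where 22.5% of all genes rose and 21.9% fell. In HM1 cells 6 rose and 0 fell (median 0.43), where 20.4% of all genes rose and 18.5% fell. The largest rises were those of Neurog2 in CAG150 (2.43, adjusted p = 7.9e-08) and Neurog1 in HM1 (3.50, adjusted p = 9.7e-09), by limma. Between the lines at day 6 the largest difference was that of Neurog2, higher in CAG150 (1.75, adjusted p = 5e-06). Isl1, a homeodomain factor, was lower, with 106 ± 14.5 in CAG150 and 351 ± 16 in HM1 at day 6 (-1.597 ± 0.127, adjusted p = 2.8e-06). Pou4f1, a sensory neuron regulator, was higher and averaged 208 ± 29.7 in CAG150 and 64 ± 12.3 in HM1 at day 6 (1.49 ± 0.15, adjusted p = 1.7e-05). Dbh, the enzyme that makes noradrenaline, averaged 83.3 ± 9.30 in CAG150 and 32.4 ± 12.4 in HM1 at day 6 (1.07 ± 0.24, adjusted p = 0.008). At day 4 the largest difference was that of Neurog1, higher in CAG150 (1.05, adjusted p = 0.00085). Ntrk3, the neurotrophin-3 receptor of sensory neurons, averaged 141 ± 6.97 in CAG150 and 73.6 ± 10.7 in HM1 at day 4 (0.82 ± 0.10, adjusted p = 0.00017). In all, 5 of 13 were higher and 2 lower in CAG150 at day 6, where 10.1% of all genes were higher and 11.2% lower. At day 4 the counts were 4 and 1, where 7.87% were higher and 7.92% lower. The neural crest marker sum given above was also higher in CAG150 at day 6, although only 2 of the 5 markers tested passed as higher. The part of the crest signal in these counts was not tested. In the difference of the day differences 3 were higher and 2 lower, where 1.58% of all genes were higher and 2.03% lower.

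Likeness of pattern over the 12 arrays was measured as the root mean square difference of log2(intensity + 16) after each gene's own mean was taken off. The arrays fall into the 4 groups, so likeness mostly reflects group means, and flat genes resemble each other by default. Nefl was nearest to Sst, somatostatin (0.15), Hoxa2, a hindbrain patterning gene (0.15), and Onecut2 (0.16). Nefm was nearest to Thsd7a (0.14), Cartpt, a neuropeptide precursor (0.22), and Gap43 (0.23). Ina was nearest to Pcdhb17 (0.13), Rab6b (0.14) and Klc1 (0.15). These 3 members ranged over 2.36 to 3.61 log2 units themselves. Nefl and Ina differed by 0.28 from each other, and Ina was place 24 in the order of genes nearest to Nefl, with Nefm, at 0.33, place 36.

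Nefh was nearest to Cdc6, which licenses DNA replication (0.10), and to Nob1 and Nip7, which act in ribosome assembly (0.10 each). Cdc6 lies on chromosome 11 like Nefh, and Nob1 and Nip7 on chromosome 8, the other chromosome with a raised median in CAG150 (0.24 at day 6). The difference between Nefh and Nefl was 1.58, and in the order of genes nearest to Nefh Nefl came at place 12246, close to the last. The measure is not scaled, so a gene that moves as far as Nefl comes late for any gene that moves little. Nefl ranged over 2.865 log2 units, Nefh over 1.157 and Prph over 1.404. From Prph, Nefl came at place 12237, so these places do not set Nefh apart. Prph was nearest to Myl6 (0.19), Myo10 (0.19) and Me1 (0.21).

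Htt, the gene with the repeat, averaged 65.1 ± 6.52 in CAG150 cells at day 6, 104 ± 9.70 in CAG150 cells at day 4, 132 ± 22.1 in HM1 cells at day 6 and 152 ± 12.6 in HM1 cells at day 4 on its brightest probe set. The arrays do not read the repeat length, so this checks the labels only in part.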

How the data were processed

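The authors deposited 1 table of intensities on a linear scale, and on every array their mean, trimmed by 2% at either end, is 150. The software, background correction and array file processing are not given in the sources used here. The 64 control probe sets were left out. Probe sets were named by the platform annotation, which gives 34945 probe sets 1 symbol, 932 several and 9160 none here.

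Groups came from the sample titles. Intensities were transformed as log2(intensity + 16), each gene was represented by its brightest probe set, and genes above the 40th percentile of probe set means (4.8 on the log2 scale) were kept, 12280 in all. A model with 1 mean per group was fitted with limma 3.58.1 in R 4.3.3 (8 residual and 4.46 prior degrees of freedom, eBayes), with Benjamini-Hochberg adjustment in each of 5 comparisons, and checked on simulated data. A second fit used the 27022 probe sets above the filter. No array detection calls were used. The number of arrays limits the precision, and so does dim signal.

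The 5 members, the lists and the rules were chosen with earlier results of these data known. The rule for named genes took the members, 4 check genes (Htt, Hprt, Tubb3 and Pou5f1), up to 4 list genes per comparison with the largest difference among those that passed, and the 3 genes nearest to each member in pattern. The alternatives were quantile normalization, median centring, pseudocounts of 1 and 64, no filter and the 60th percentile, averaged probe sets, other probe sets, a replicate block, the arrays compared alone, a variance trend and omission of each array. Centring on genes outside chromosomes 8, 11 and Y, and the alternatives for the lists, were added after the data were seen. Chromosomes and positions are from a RefSeq gene table of GRCm38.p6.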

Additional observations from a re-analysis of the deposited data

Results flagged for a closer look

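Of the 5 neuronal intermediate filament genes, 0 passed a test of whether the change between the days differed between the lines. Of all genes tested, 3.61% passed, 1.58% as higher and 2.03% as lower. The rule for the lists named 11 genes that passed, at most 4 from each list, so this number is no share of the list genes. Values are the day 6 minus day 4 difference in CAG150 minus the same in HM1, on the log2 scale, with limma's adjusted p. Of the 24 axonal genes 5 passed, all higher, where 1.58% of all genes tested were higher. Among them were 2.15 for Stmn2 (adjusted p = 3.6e-06), 1.47 for Gng3 (3.6e-05), 1.21 for Syt1 (0.0012) and 0.63 for Gap43 (0.019). At day 4 Stmn2 and Gng3 were lower in CAG150 than in HM1, by -1.77 and -1.07. Of the 25 neurofilament partners tested 2 passed, Mapk10 with 1.43 (0.035) and Trim2 with 0.55 (0.038). Of the 13 regulators and transmitter genes of peripheral and motor neurons tested 5 passed. Among these were 0.96 for Neurog2 (0.026), 0.90 for Ntrk2 (0.0029), -1.57 for Isl1 (0.00045) and -1.93 for Neurog1 (0.00055). Of the 10 other intermediate filament genes tested 1 passed, the keratin gene Krt18 with -0.89 (0.011). The calls of Trim2, Mapk10 and Neurog2 were lost in 11, 8 and 8 of the 12 omissions of 1 array. No cause of these differences was tested.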

How the results depend on the processing

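The day differences of Nefl, Nefm, Ina and Nefh and the day 4 difference of Nefm between the lines kept their direction and call in the alternatives run, and of 280 values of the 5 genes outside the omission of single arrays 256 kept both, 14 lost the call, 3 gained it and 7 turned sign. The count at day 6 between the lines was 0 with median centring, 1 with a pseudocount of 1, 1 without the filter, 4 with the filter at the 60th percentile, where Nefh passed too (adjusted p = 0.04), 2 with the arrays compared alone, where Nefm did not pass (0.057), and 0 to 3 when 1 array was left out, against 3. At day 4 it was 1 with the filter at the 60th percentile, which leaves Prph untested, and 1 with averaged probe sets, against 2. The count for the difference of the day differences was 0 to 1 when 1 array was left out. At day 4 Nefl turned to -0.014 and Ina to -0.02 with median centring, and Ina to -0.109 with the mean of its probe sets, -0.329 with 1418178_at and -0.042 with 1448992_at. With the mean of probe sets Prph had 0.076 between the days in HM1 and -0.059 for the difference of the day differences. Leaving out 1 array gave -0.045 to 0.141 for Nefl and -0.039 to 0.146 for Ina at day 4, and for Prph -0.366 to 0.008 at day 6 and -0.061 to 0.313 between the days in CAG150. With the replicate block Nefl had adjusted p = 0.063, Ina 0.06 and Nefh 0.03 at day 6, but same-numbered arrays did not deviate together (correlations of -0.133 to 0.122), so the numbers are not taken as pairs. Centring outside chromosomes 8, 11 and Y, added after the data were seen, gave Nefh 0.352 (adjusted p = 0.045).

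For partners at day 6 the count was 3 without the filter, 3 with the replicate block, 3 with the arrays compared alone and 2 to 5 when 1 array was left out, against 5. For partners in the difference of the day differences it was 1 with median centring, 0 with a pseudocount of 1, 0 without the filter, 1 with the mean of probe sets, 1 with the replicate block and 0 to 1 when 1 array was left out, against 2. For the regulators it was 3 with a pseudocount of 1, without the filter, with the mean of probe sets and with the replicate block, and 3 to 5 when 1 array was left out, against 5. For other intermediate filament genes it was 1 to 2 when 1 array was left out, against 1, and with the filter at the 60th percentile 2 at day 6 and 2 at day 4, against 4 and 4. The causes were not tested, apart from the smaller number of genes under the stricter filter. Dim probe sets limit Prph, whose CAG150 means lie near the filter.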
